A study of Mus musculus with 6 samples.

Results

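The TREM receptors Trem1, Trem2, Trem3 and Treml2, the transmembrane adaptors Tyrobp (DAP12) and Hcst (DAP10), and the downstream signalling proteins Syk, Plcg2 and Blnk were examined in bone marrow monocytes (BMDM) and brainstem microglia (BSM). These 9 genes were chosen by name from the 35237 genes of the FPKM table, and the same symbols were found among the 36536 entries of a second, ALEXA-Seq, table of the same libraries. Each cell type was represented by 3 RNA-Seq libraries, each prepared from FACS-sorted cells pooled from C57BL/6 mice at 6 weeks of age. BMDM were sorted on CD11b and CD115 and BSM on CD11b and low CD45, both without Ly6G, and the labels give male mice for replicate 1 of each cell type and female mice for replicates 2 and 3, whereas the study's text speaks of male mice. As each library is a pool and each sort defines its own population, the p-values below measure only the spread between these libraries. The comparison asks which parts of the TREM pathway distinguish marrow monocytes from resident microglia.

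TREM receptors are single-pass immunoglobulin-type receptors of myeloid cells, most of which have no signalling tail of their own and depend on DAP12. Phosphorylation of the ITAM, a pair of tyrosines in the DAP12 tail, by Src family kinases recruits the kinase Syk, which acts through adaptors such as Blnk and enzymes such as Plcg2, whereas DAP10 carries a motif that recruits phosphoinositide 3-kinase. In the brain, Trem2 and Tyrobp are studied for the sensing of lipids and apoptotic cells by microglia, and Trem1 is known from blood neutrophils and monocytes as an amplifier of inflammation.

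Marker genes followed the labels, with exceptions. The summed FPKM (sequenced fragments scaled by transcript length and by the number of mapped reads) of 4 microglia markers was 580 to 650 in BSM and 17.3 to 18.7 in BMDM, and that of 4 monocyte markers was 169 to 181 in BMDM and 13.6 to 20.5 in BSM, although Cd14 and Fcgr1 of the latter list were higher in BSM. Perivascular macrophage markers summed to 0.470, 4.17 and 2.23 in BSM replicates 1 to 3 and to 1.74 to 2.33 in BMDM. Neural and endothelial markers summed to 2.19 to 2.99 in BSM and 6.88 to 11.4 in BMDM, where Mbp alone was at 5.56, 8.58 and 6.34. All 8 granulocyte markers were higher in BMDM, with sums of 61.1, 515 and 102 in BMDM replicates 1 to 3 and at most 0.139 in BSM, where S100a8, Elane, Camp and Ltf were listed at 0 in every library. BMDM replicate 2 also had the highest sums for B cell markers (12.04 against 0.494 and 1.78) and for NK and T cell markers (6.22 against 0.507 and 0.756). BSM replicate 1 stood apart in another way, since 472 of the tested genes were listed at 0 in it, against 51 to 115 in the other libraries. The RNA quality table of the study gives this library the least RNA and by far the lowest integrity value. The sums of FPKM over all genes were 2.50 times higher in BMDM than in BSM. Of these sums, 2 mitochondrial rRNA genes made up 22.7% to 25.1% in BMDM and 6.93% to 8.74% in BSM. The median log2 fold change of the tested genes was 0.81 towards BMDM. A fold change of that size towards BMDM is therefore the centre of all genes.

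Within the receptors, Trem2 was higher in BSM whereas Trem1, Trem3 and Treml2 were higher in BMDM. All 9 members had non-overlapping FPKM between the cell types, and the same was true of their ALEXA-Seq values. This separation is common in these data. It was found in 66.8% of the 6364 genes that reached an FPKM of 3 in any library, which are the genes tested, and in 37.4% of the 21167 genes that were not at 0 throughout.

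**Figure D1:**
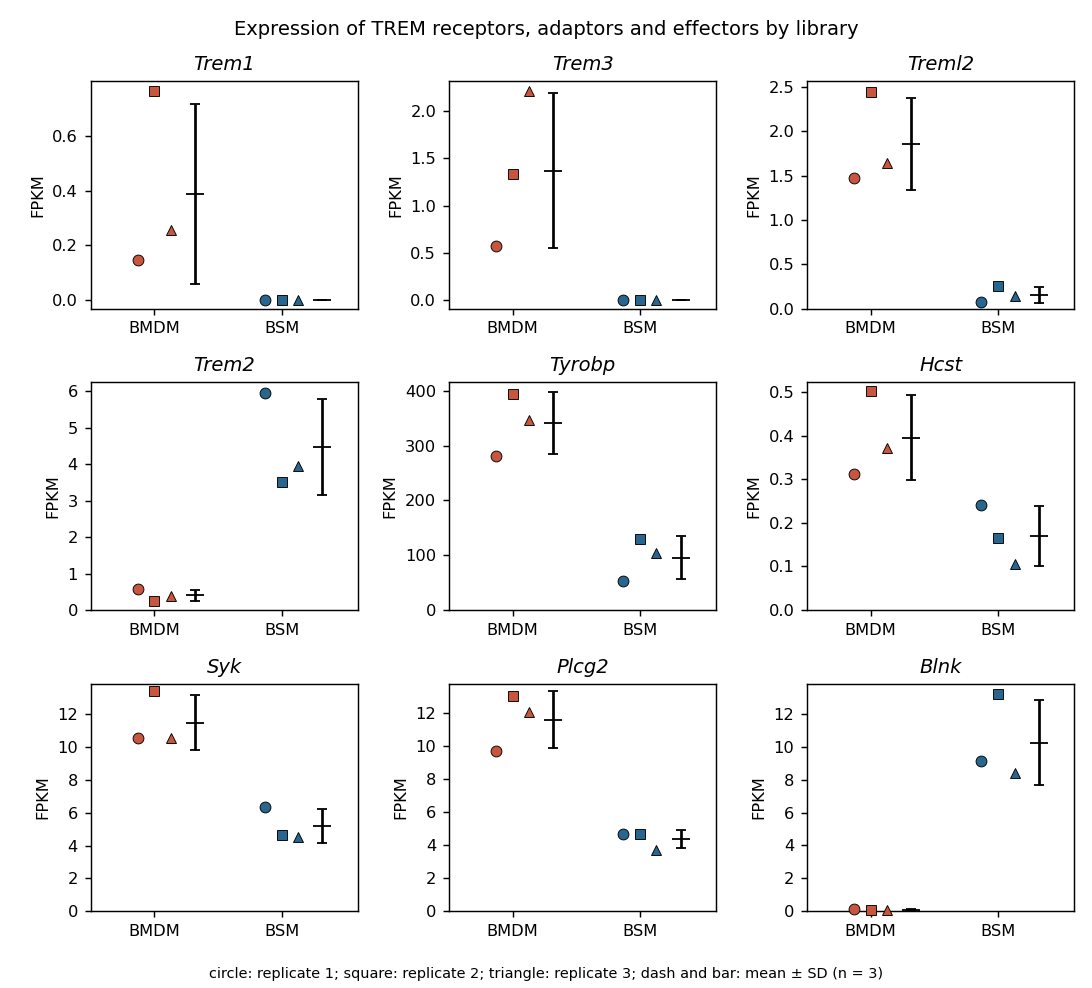
FPKM of each member in each library of BMDM and BSM (y axes linear, a separate range for each gene), with symbols for the 3 replicates and the mean ± SD beside them. Trem2 and Blnk were higher in all 3 BSM libraries, and the other 7 members were higher in all 3 BMDM libraries.

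Trem2 had FPKM of 5.97, 3.52 and 3.94 in BSM replicates 1 to 3 and 0.568, 0.244 and 0.389 in BMDM replicates 1 to 3. The lowest BSM library was thus well above the highest BMDM library. The means were 4.48 ± 1.31 in BSM and 0.40 ± 0.162 in BMDM (SD, n = 3), an 11.2-fold ratio, and the difference passed the test (log2 fold change -1.95 on log2(FPKM + 1), SE 0.28, limma adjusted p = 0.000971; negative values are higher in BSM). Without BSM replicate 1, in which Trem2 was highest, the ratio was 9.32. ALEXA-Seq, a value per gene on a linear scale of its own, gave 98.6, 72.6 and 71.8 in BSM and 4.89, 2.13 and 2.68 in BMDM, a ratio of 25.0 (log2 fold change -4.31, limma adjusted p = 0.000317). Among the members, Trem2 and Blnk were the only ones higher in BSM, and both passed the test in all 18 alternative settings, including every scaling and each left-out library.

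Trem1 was listed at 0 in all 3 BSM libraries and at 0.147, 0.761 and 0.255 FPKM in BMDM replicates 1 to 3. Its ALEXA-Seq values were 3.59, 19.0 and 5.10 in BMDM against 0, 0.0465 and 0 in BSM. BMDM replicate 2 was highest by both measures, and it is also the library with the highest granulocyte marker sum. Both Trem1 and these markers were above the BSM libraries in all 3 BMDM libraries, and the part of those cells in the Trem1 level was not tested. Trem1 did not reach an FPKM of 3 in any library and was left out of the main test. In the fit of all 21167 genes it was not called (log2 fold change 0.45 on log2(FPKM + 1), limma adjusted p = 0.12). Adding 1 to each FPKM shrinks differences between values below 1, so the missed call does not show equal levels.

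Trem3, a DAP12-dependent activating receptor of mouse macrophages, was likewise listed at 0 in all BSM libraries by both measures. Its FPKM were 0.573, 1.34 and 2.21 in BMDM replicates 1 to 3, and its ALEXA-Seq values were 10.5, 31.1 and 45.2. Replicate 3 was highest here, not replicate 2. The difference passed the test among genes that reached an FPKM of 1 (limma adjusted p = 0.0117) and on the ALEXA-Seq values (limma adjusted p = 0.00180), without a fold, as BSM was at 0. Trem3 entered both tests only through its BMDM values.

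Treml2, a TREM-like receptor of myeloid cells and B cells, was detected in every library. Its FPKM were 1.48, 2.45 and 1.65 in BMDM and 0.0792, 0.252 and 0.139 in BSM. The BMDM mean (1.86 ± 0.519) was 11.8 times the BSM mean (0.157 ± 0.0880; SD, n = 3). It passed the test at the FPKM minimum of 1 (log2 fold change 1.29, SE 0.23, limma adjusted p = 0.00296), a fit in which 37.2% of all genes were called higher in BMDM, and on ALEXA-Seq values (log2 fold change 3.20, limma adjusted p = 0.00269). Treml2 reached the FPKM minimum of 1 only in BMDM, and entered the ALEXA-Seq test only through its BMDM values.

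The 4 receptor genes lie together on mouse chromosome 17, and the opposite direction of Trem2 was found inside this cluster. In mm9, the build of the deposited positions, Trem1 spans chr17:48371903-48386091, Trem3 chr17:48386944-48398207, Treml2 chr17:48439265-48450416 and Trem2 chr17:48485726-48493472. Between and beside them are Treml4 and the uncharacterized gene B430306N03Rik, which had higher FPKM in every BMDM library, and Treml1, which was higher in every BSM library. Treml4 had FPKM of 2.35, 1.58 and 2.07 in BMDM and at most 0.0488 in BSM. B430306N03Rik, which lies between Treml2 and Trem2, had 4.71, 3.82 and 3.00 in BMDM and 0.0169, 0.376 and 0.408 in BSM. Treml1 was close to 0 in all libraries, with at most 0.00803 in BMDM and 0.0299 to 0.166 in BSM. Going along the chromosome, the first 5 of these 7 genes were thus higher in BMDM and the last 2 were higher in BSM. Nfya, a ubiquitous transcription factor subunit that follows Treml1, had overlapping FPKM of 5.19, 10.3 and 6.60 in BMDM and 7.20, 6.05 and 5.52 in BSM.

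**Figure D2:**
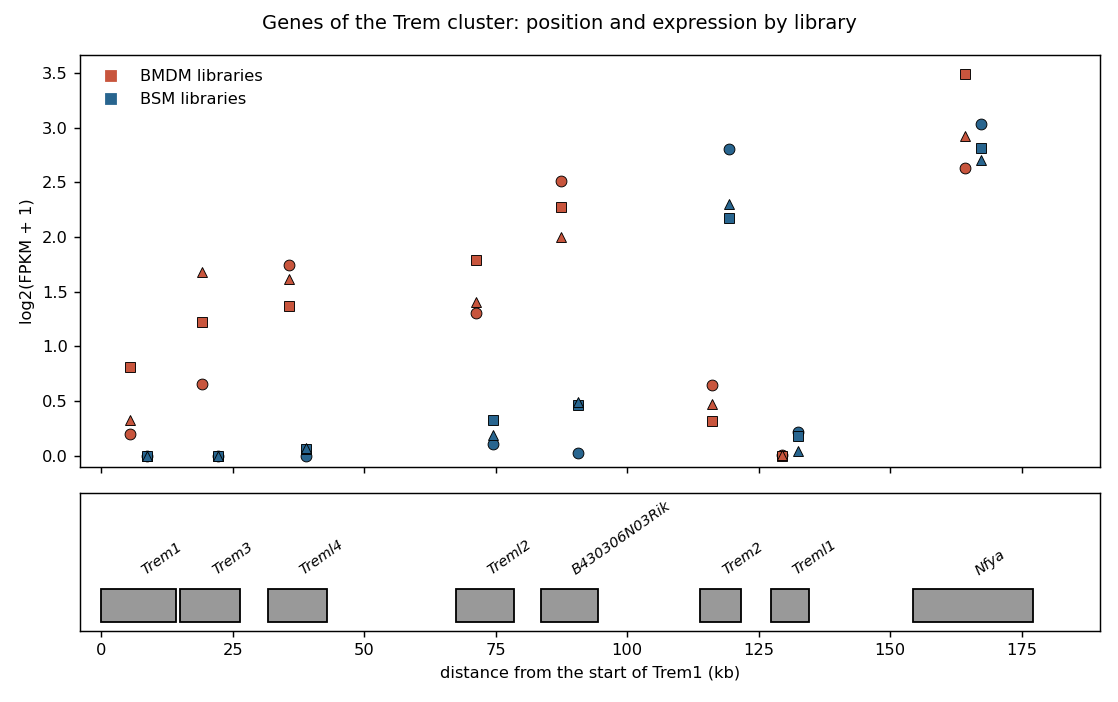
Upper panel, log2(FPKM + 1) of each gene of the Trem cluster in the 6 libraries; lower panel, the extent of each gene by distance in kb from the start of Trem1. The 5 genes from Trem1 to B430306N03Rik were above the BSM libraries in BMDM, Trem2 and Treml1 were the opposite, and the libraries overlapped for Nfya.

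The sequence upstream of the transcription start is shown for Trem1 and Trem2, receptors of the same cluster with opposite directions, and for Blnk, the tested member with the largest fold change. Each is the 250 bases before the RefSeq start in GRCm38.p6, a later build than that of the deposited positions, at chr17:48232489-48232738 for Trem1 and chr17:48346151-48346400 for Trem2, both on the plus strand, and at chr19:40994222-40994471 on the minus strand for Blnk. Capitals mark GAGGAA, a form of the site recognized by the myeloid factor PU.1, on either strand. The shorter GGAA within it was not searched on its own.

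Trem1: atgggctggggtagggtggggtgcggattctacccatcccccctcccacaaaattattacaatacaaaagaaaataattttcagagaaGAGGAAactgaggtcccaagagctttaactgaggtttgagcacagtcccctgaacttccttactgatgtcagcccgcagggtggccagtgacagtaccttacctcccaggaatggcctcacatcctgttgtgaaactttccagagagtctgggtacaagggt

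Trem2: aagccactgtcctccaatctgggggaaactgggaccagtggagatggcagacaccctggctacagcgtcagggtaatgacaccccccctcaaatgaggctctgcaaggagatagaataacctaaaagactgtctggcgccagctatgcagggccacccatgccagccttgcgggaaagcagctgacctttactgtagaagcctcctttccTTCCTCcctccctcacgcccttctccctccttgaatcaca

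Blnk: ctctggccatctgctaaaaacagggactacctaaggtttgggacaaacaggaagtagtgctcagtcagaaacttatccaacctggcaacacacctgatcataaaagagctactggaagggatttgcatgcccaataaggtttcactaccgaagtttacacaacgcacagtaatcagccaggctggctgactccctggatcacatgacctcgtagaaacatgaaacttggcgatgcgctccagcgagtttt

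GAGGAA was present upstream of both receptors, at position -162 from the Trem1 start on the gene's strand and at -40 from the Trem2 start on the other strand, and was not found in the Blnk window. It was also found at position -9 from the second of the 2 annotated starts of Syk, and in none of the windows of Hcst, Plcg2 and the first Syk start. RefSeq windows were matched for 6 of the 9 members. GAGGAA occurs in 23.3% of all 32851 windows of this length. GGAA followed by any 2 bases and GAAA, a composite motif of PU.1 with interferon regulatory factors, and TGACTCA, the AP-1 motif, occur in 2.30% and 4.46% of them and in none of the members' windows. Both strands were searched, and these are matches of letters only.

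Both adaptors were higher in BMDM, at very different levels. Tyrobp, the ITAM adaptor, had FPKM of 281, 395 and 347 in BMDM and 52.8, 129 and 104 in BSM. It ranked between 22nd and 32nd of 35237 genes in BMDM and was 168th, 54th and 60th in BSM, which made it the most abundant member per length in every library. The means were 341 ± 57.2 and 95.4 ± 38.9 (SD, n = 3), a ratio of 3.57, and the difference passed the test (log2 fold change 1.91, SE 0.35, limma adjusted p = 0.00276). The lowest value was that of BSM replicate 1, the library with the most tested genes at 0, and the ratio without it was 2.92. The direction was kept under every scaling of the libraries, and the call held with quantile normalization (log2 fold change 1.23, limma adjusted p = 0.0297) but not after scaling to the same sum of FPKM (0.60, limma adjusted p = 0.183). It was also lost with the same sum without 2 mitochondrial rRNA genes (0.87, limma adjusted p = 0.0755) and on quantile-normalized ALEXA-Seq values (0.997, limma adjusted p = 0.0918). In a bulk library, fewer expressing cells and less RNA per cell cannot be told apart.

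Hcst, the adaptor of the phosphoinositide 3-kinase pathway, was near the lower end of the members. Its FPKM were 0.312, 0.503 and 0.372 in BMDM and 0.240, 0.166 and 0.105 in BSM. The groups did not overlap, but the highest BSM library and the lowest BMDM library were close. The ratio of the means was 2.32, and no difference was called in the fit without a minimum (log2 fold change 0.25 on log2(FPKM + 1), limma adjusted p = 0.139). By rank within the library the groups overlapped, as Hcst was 7470th in BSM replicate 1 and between 9343rd and 9901st in BMDM. Tyrobp and Hcst are neighbours on chromosome 7 that point towards each other, at chr7:31198809-31202596 on the plus strand and chr7:31202736-31204873 on the minus strand in mm9, with 139 bases between their ends. The library method is not stated to keep the strand, so reads running past either end may not have been assigned by strand, and their part in the Hcst values was not tested.

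Syk and Plcg2, the kinase and the phospholipase of the ITAM pathway, were present in both cell types at similar levels and were both higher in BMDM by about the amount of the median gene. Syk (chr13:52678542-52744161) had FPKM of 10.5, 13.4 and 10.5 in BMDM and 6.37, 4.62 and 4.53 in BSM. Plcg2 (chr8:120022180-120159040) had 9.70, 13.0 and 12.1 in BMDM and 4.67, 4.66 and 3.73 in BSM. The spread within a cell type was small against the gap for both. The ratio of the means was 2.22 for Syk (11.5 ± 1.66 against 5.17 ± 1.03; log2 fold change 1.02, SE 0.24, limma adjusted p = 0.00868) and 2.66 for Plcg2 (11.6 ± 1.69 against 4.36 ± 0.545; log2 fold change 1.23, SE 0.23, limma adjusted p = 0.00325; SD, n = 3). Both calls were lost when the libraries were scaled to each other. With quantile normalization the log2 fold change was 0.28 for Syk (limma adjusted p = 0.359) and 0.48 for Plcg2 (limma adjusted p = 0.0955), and after scaling to the same sum of FPKM it was -0.14 for Syk (limma adjusted p = 0.648), now towards BSM, and 0.08 for Plcg2 (limma adjusted p = 0.790). By rank within the library Syk overlapped between the cell types, from 1632nd to 1965th in BMDM and from 1707th to 2446th in BSM, while Plcg2 ranked higher in every BMDM library.

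Blnk, the adaptor that links Syk to phospholipase C gamma in B cells, had the largest fold change of the tested members and was higher in BSM. It had FPKM of 9.14, 13.2 and 8.38 in BSM and 0.135, 0.0979 and 0.0583 in BMDM. Every BSM library was far above every BMDM library. The means were 10.2 ± 2.58 and 0.0969 ± 0.0381 (SD, n = 3), a ratio of 106 that lay between 88.1 and 131 when each library was left out in turn (log2 fold change -3.33, SE 0.26, limma adjusted p = 4.17e-05). ALEXA-Seq values were 112, 177 and 107 in BSM and 0.872, 0.563 and 0.416 in BMDM (log2 fold change -6.33, limma adjusted p = 8.59e-05). The gene, at chr19:41003417-41069025 on the minus strand in mm9, is also expressed in B cells. The summed B cell markers were lower in BSM (0.317 to 0.464 FPKM) than in BMDM (0.494 to 12.04), and Ms4a1, Pax5 and Igll1 were listed at 0 in every BSM library. Cd79b of the same list overlapped, at 0.317, 0.444 and 0.284 in BSM and 0.153, 0.363 and 0.645 in BMDM. The part of B cells in the Blnk level was not tested.

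Counted together, 5 of the 9 members passed the FPKM minimum of 3 and all 5 passed the test, with Tyrobp, Syk and Plcg2 higher in BMDM and Trem2 and Blnk higher in BSM. Trem2 and Blnk reached this minimum only in BSM, the cell type where they were high, whereas Tyrobp, Syk and Plcg2 reached it in both. Over all 6364 genes tested, 45.3% were called towards BMDM and 9.22% towards BSM, and the median log2 fold change of the 5 members was 1.02 against 0.81 for all genes. With quantile normalization, where 21.7% of all genes were called towards BMDM and 19.3% towards BSM, 1 member (Tyrobp) was called higher in BMDM and 2 (Trem2 and Blnk) in BSM. On ALEXA-Seq values, 7 members were tested, of which 5 were called higher in BMDM, against 37.1% of all genes, and 2 higher in BSM, against 10.9%. Trem2 and Blnk entered this test only through their BSM values, and Trem3 and Treml2 only through their BMDM values. After quantile normalization of the ALEXA-Seq values, Trem3 and Treml2 stayed called towards BMDM, and Trem2 and Blnk towards BSM. Tyrobp, Syk and Plcg2 then lost their calls (limma adjusted p = 0.0918, 0.246 and 0.0741). None of the 9 members shares a stretch of near-identical transcript sequence with another annotated gene.

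**Figure D3:**
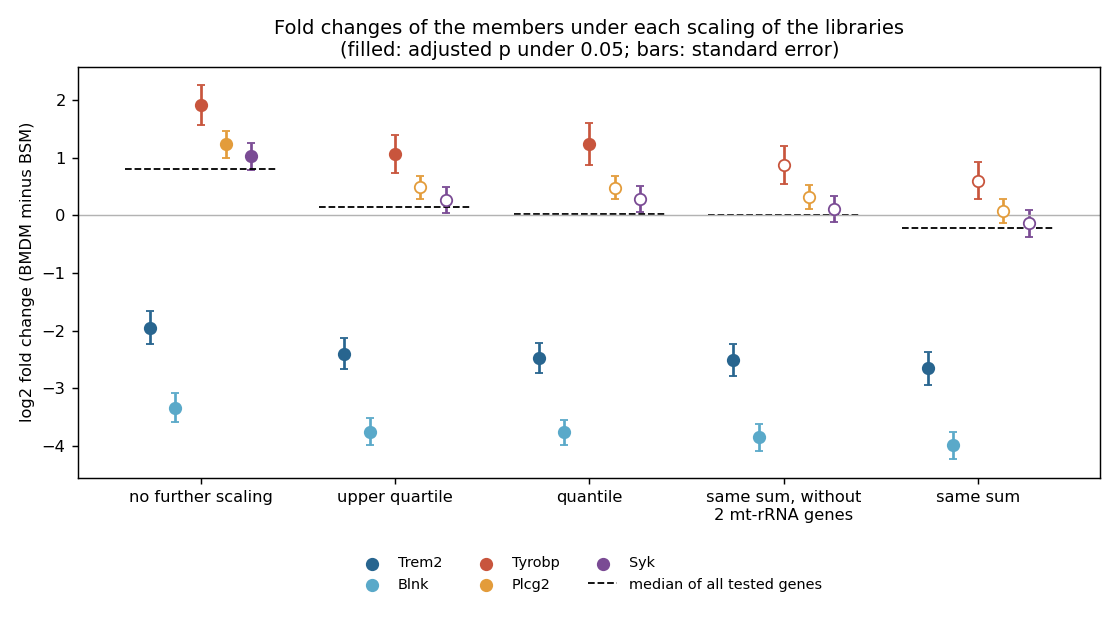
Log2 fold change (BMDM minus BSM) of the 5 tested members, with standard errors, under no further scaling and 4 scalings of the libraries; filled points passed the test and the dashed lines are the median of all tested genes. Trem2 and Blnk were below 0 and called throughout, whereas Syk moved with the median, from 1.02 to -0.14.

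Multiplying a library by a constant does not change the percentage of one member relative to another within it. Quantile normalization is not such a scaling and can change this percentage. The tested log2 ratios carry a pseudocount of 1 and do depend on the scaling. Trem2 amounted to 11.3%, 2.73% and 3.77% of the FPKM of its adaptor Tyrobp in BSM, and to 0.202%, 0.0618% and 0.112% in BMDM. The adaptor thus exceeded this receptor in both cell types, and by more in BMDM. On log2((FPKM + 1)/(FPKM + 1)) the difference was -3.85 (exact permutation test, two-sided p = 0.1, the smallest that 3 against 3 libraries can give; adjusted p = 0.133 over 4 ratios), and it was -5.45 without a pseudocount. Blnk amounted to 144%, 285% and 185% of Syk in BSM and to 1.28%, 0.731% and 0.554% in BMDM, so that per length Blnk exceeded Syk in every BSM library and was near absent beside it in BMDM (difference -4.35, exact permutation p = 0.1, adjusted p = 0.133; -7.93 without a pseudocount).

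The other pairs kept closer proportions. Plcg2 was 92.2%, 96.9% and 114% of Syk in BMDM and 73.4%, 101% and 82.2% in BSM, and these overlapped (difference 0.21, exact permutation p = 0.3, adjusted p = 0.3). Hcst was 0.111%, 0.127% and 0.107% of Tyrobp in BMDM and 0.455%, 0.128% and 0.10% in BSM. Only BSM replicate 1 stood above the rest for this pair. The difference was -1.65 with the pseudocount of 1 (exact permutation p = 0.1, adjusted p = 0.133) but -0.65 without one (exact permutation p = 0.6), as Hcst is itself below 1 FPKM.

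**Figure D4:**
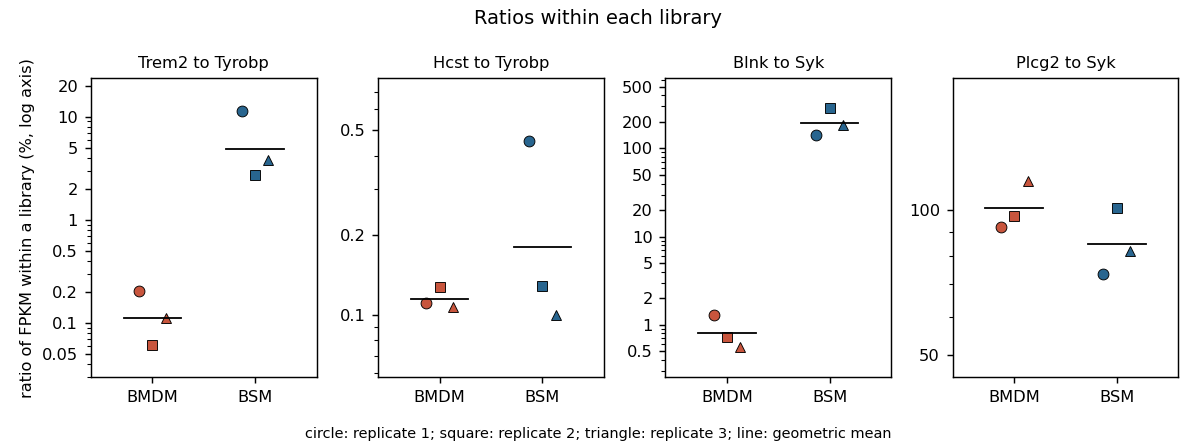
Ratio of FPKM between 2 members within each library, in percent on a log axis, with symbols for replicates and lines for geometric means. Trem2 to Tyrobp and Blnk to Syk were higher in every BSM library, while Plcg2 to Syk overlapped and Hcst to Tyrobp differed only in BSM replicate 1.

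Of 66 further genes of the pathway, 43 passed the FPKM minimum, of which 20 were called towards BMDM and 7 towards BSM. Over all genes tested, these shares were 45.3% and 9.22%. The median log2 fold change of the 43 genes was 0.77, near the 0.81 of all genes. With quantile normalization the counts were 13 towards BMDM and 15 towards BSM, against 21.7% and 19.3% of all genes. The balance of directions in these lists thus depended on the scaling. Of the genes named below that were called in the main test, only Fcer1g, Ptpn6 and Inpp5d reached an FPKM of 3 in both cell types. The others reached it only in the cell type where they were high, and entered the test through it. The called genes named below kept their direction under every scaling unless stated.

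Of 14 further receptors, most but not all of which pair with Tyrobp or Hcst or are related to TREMs, 4 were tested. Siglech, a DAP12-coupled receptor of the Siglec family, had FPKM of 84.7, 89.5 and 84.4 in BSM and 0.0451, 0.149 and 0.117 in BMDM (log2 fold change -6.30, limma adjusted p = 2.25e-06). It was the most abundant of the tested receptors in BSM, above Trem2. Cd300lb, an activating receptor of the CD300 family, was at 8.81, 18.9 and 7.85 in BMDM and at most 0.111 in BSM (log2 fold change 3.51, limma adjusted p = 0.000141). Clec7a (Dectin-1) was also higher in BMDM. Clec5a, like Siglech a DAP12 partner, had means of 26.5 in BMDM and 25.7 in BSM with no call. It was called towards BSM after scaling to the same sum of FPKM (log2 fold change -1.21, limma adjusted p = 0.00846) and to that without 2 mitochondrial rRNA genes (-0.94, limma adjusted p = 0.0272). With upper quartile scaling (-0.77, limma adjusted p = 0.0545) and quantile normalization (-0.71, limma adjusted p = 0.0728) it pointed towards BSM without a call. Of the 10 receptors under the minimum, all but Treml1 and Oscar had a higher mean in BMDM, and Oscar was listed at 0 in every library. How often a higher mean in BMDM occurred among all genes under the minimum is not given here.

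Fcer1g, the other ITAM adaptor of myeloid cells, had nearly the same levels as Tyrobp. Its FPKM were 255, 367 and 249 in BMDM and 48.7, 118 and 71.0 in BSM (log2 fold change 1.93, limma adjusted p = 0.00255). Among its libraries, as for Tyrobp, BMDM replicate 2 was highest and BSM replicate 1 was lowest. Like that of Tyrobp, the call was lost after scaling to the same sum of FPKM, with or without 2 mitochondrial rRNA genes.

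Of 8 Src family kinases, which phosphorylate the ITAM, 5 were tested, with 3 called higher in BMDM and 1 in BSM (45.3% and 9.22% of all genes). Fgr had FPKM of 8.73, 11.6 and 9.47 in BMDM and 0.736, 0.265 and 0.110 in BSM (log2 fold change 3.01, limma adjusted p = 8.76e-05), and Yes1 was at 0.978, 2.75 and 3.22 in BSM and at most 0.0878 in BMDM (log2 fold change -1.62, limma adjusted p = 0.00853), and it fell under the FPKM minimum without BSM replicate 3. Lyn was the most abundant of these kinases, with means of 48.2 in BMDM and 40.8 in BSM and no call (log2 fold change 0.25, limma adjusted p = 0.417), a direction that was reversed under each scaling and became a call towards BSM with the same sum of FPKM (-1.04, limma adjusted p = 0.0178). With library quality weights Lyn was called towards BMDM (0.47, limma adjusted p = 0.0213). Lyn and Yes1 share 37.6% and 13.6% of their longest transcript with near-identical copies, so their values are less certain. The Tec kinases Btk and Tec, which activate phospholipase C gamma, were not called either, with Btk means of 7.58 in BMDM and 5.65 in BSM (limma adjusted p = 0.309) and a direction that was likewise reversed under each scaling. Btk was called towards BMDM without BSM replicate 1 (log2 fold change 0.65, limma adjusted p = 0.0453) and with library quality weights (0.59, limma adjusted p = 0.00739).

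Of 19 adaptors and effectors, 16 were tested, with 6 called towards BMDM, 3 towards BSM (45.3% and 9.22% of all genes) and 7 not called. The guanine nucleotide exchange factors of the Vav family differed in direction. Vav3 was at 9.28, 7.06 and 9.49 FPKM in BMDM and at most 0.0650 in BSM (log2 fold change 3.20, limma adjusted p = 3.96e-05), Vav2 was at 7.15, 4.27 and 4.68 in BSM and 0.788, 0.998 and 1.69 in BMDM (log2 fold change -1.56, limma adjusted p = 0.00303), and Vav1 had means of 10.1 and 8.99 with no call. Under each of the 4 scalings Vav1 was called towards BSM (with quantile normalization, log2 fold change -0.62, limma adjusted p = 0.0455).

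Of 13 inhibitors of ITAM signalling, 9 were tested, with 6 called higher in BMDM and 2 in BSM (45.3% and 9.22% of all genes). The phosphatase Ptpn6 (SHP-1) had FPKM of 17.1, 29.4 and 18.9 in BMDM and 2.66, 6.84 and 5.96 in BSM (log2 fold change 1.93, limma adjusted p = 0.00314). This call was lost after scaling to the same sum of FPKM, with or without 2 mitochondrial rRNA genes. The inhibitory receptor Pirb, of whose transcript 55.2% is shared with near-identical copies, was at 20.3, 21.4 and 18.8 in BMDM and 0.0307, 1.18 and 1.38 in BSM (log2 fold change 3.60, limma adjusted p = 0.000128). The lipid phosphatase Inpp5d (SHIP-1) was higher in BSM, at 53.2, 12.5 and 11.1 FPKM against 4.73, 7.36 and 6.17 in BMDM (log2 fold change -1.56, limma adjusted p = 0.0425). BSM replicate 1 was far above the other libraries here, and without it the log2 fold change was -0.87 (limma adjusted p = 0.0113). The Inpp5d call was lost in 6 of 16 alternatives.

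Of 4 genes for proteins that bind TREM receptors, 3 were tested. Lgals3 (galectin-3), a Trem2 ligand, was at 15.8, 19.8 and 17.5 FPKM in BMDM and at most 0.0288 in BSM (log2 fold change 4.18, limma adjusted p = 7.50e-06). Pglyrp1, a ligand of Trem1 made by granulocytes, was at 2.95, 11.3 and 2.53 in BMDM and at most 0.0163 in BSM (log2 fold change 2.47, limma adjusted p = 0.00392), with its highest value in BMDM replicate 2, as for Trem1 and the granulocyte markers. Without that library it fell under the FPKM minimum. Apoe, a lipoprotein bound by Trem2, was at 2.43, 5.48 and 4.63 in BMDM and 5.10, 5.35 and 4.42 in BSM without a call (limma adjusted p = 0.488), although it was called higher in BSM under each of the 4 scalings (with quantile normalization, log2 fold change -1.01, limma adjusted p = 0.0137). Adam10 and Adam17, the proteases that shed Trem2 from the cell surface, had higher FPKM in every BSM library, with means of 20.0 and 30.8 in BSM against 12.9 and 20.8 in BMDM. They did not pass the test (limma adjusted p = 0.0582 and 0.0834) but were called with quantile normalization (log2 fold change -1.37 and -1.31, limma adjusted p = 0.00191 and 0.00215), as under the other scalings.

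**Figure D5:**
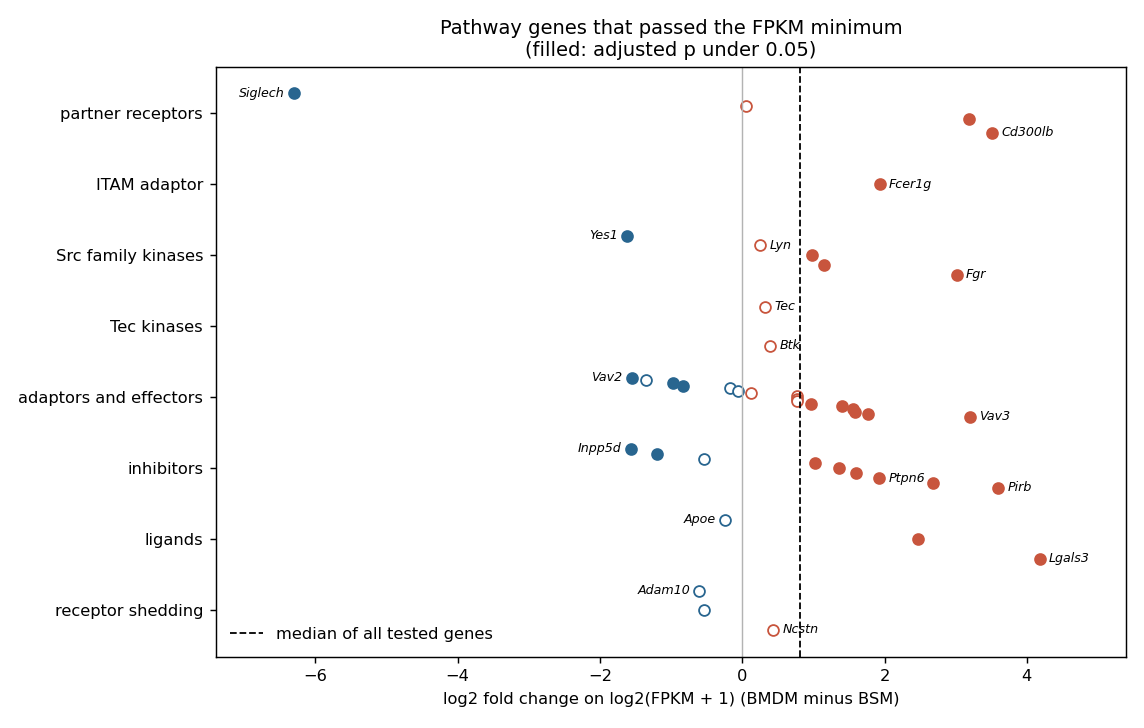
Log2 fold change on log2(FPKM + 1) (BMDM minus BSM) of the 43 tested pathway genes, grouped by role; filled points passed the test and the dashed line is the median of all tested genes. Siglech lay far to the BSM side at -6.30, and Lgals3 lay furthest to the BMDM side at 4.18.

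The genes nearest to each member in profile were taken as those with the smallest root mean square difference between centred log2(FPKM + 1) values over the 6 libraries. For Trem2 these were Thrsp (0.10), Tlr7 (0.102) and Myo1e (0.122), for Blnk Spint1 (0.10), Rnf180 (0.110) and Ppp1r9a (0.157), and for Tyrobp Sdhc (0.0625), Syf2 (0.0648) and Ube2d3 (0.0765). The nearest to Syk were Ghitm (0.0372), Dad1 (0.0436) and Vapb (0.0798), and to Plcg2 Atic (0.0631), Arhgap1 (0.0676) and Rps9 (0.0769). No member was among the nearest genes of another. Tlr7, a sensor of single-stranded RNA, had means of 57.3 FPKM in BSM and 14.1 in BMDM, a smaller ratio than that of Trem2, and the nearness holds on the log2(FPKM + 1) scale, which shrinks the difference of the lower gene. With 6 libraries in 2 groups such likeness reflects mostly the difference between the cell types, and ranking by Pearson correlation kept 2 of the 15 genes.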

How the data were processed

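RNA from sorted, pooled cells was amplified by the Ovation method and sequenced as paired-end reads. Per the labels, CASAVA 1.7.0, TopHat 1.3.1, Bowtie 0.12.7, Cufflinks 1.0.3 and the build mm9 were used. The authors deposited FPKM from Cufflinks and, made from the same libraries, an ALEXA-Seq signal on a linear scale whose unit is not given in the sources used here. Neither table holds counts, so the depth behind each value is unknown.

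Log2(FPKM + 1) values were tested with limma 3.58.1 (R 4.3.3, trended prior variance) where a gene reached an FPKM of 3 in any library, with Benjamini-Hochberg adjustment over every tested gene and a threshold of 0.05. The 6364 highest ALEXA-Seq entries were tested alike. The study's Cuffdiff test needs reads and was not run. Ratios of members were compared by exact permutation tests (scipy 1.17.1). The fit was tested on simulated data. Near-identical copies came from blastn 2.17.0 on GENCODE M21 transcripts, which also gave the strands. Pathway genes were matched by symbol, with Pirb listed as Lilrb3 and Trem5 as 9830107B12Rik. Named genes were the members, the largest called change in each direction of each pathway list, 7 pathway genes set in any case (Fcer1g, Ptpn6, Inpp5d, Lyn, Btk, Apoe and Pglyrp1), the 3 nearest genes in profile and the genes beside the Trem receptors. Clec7a, Clec5a, Oscar, Tec, Vav1, Adam10 and Adam17 were named after their values were seen. The members and lists were chosen with earlier results of these data known. A gene of the pathway lists is not reported here, and is left out of their counts.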

Additional observations from a re-analysis of the deposited data

How the results depend on the processing

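The number of members called was 5 and became 3 with upper quartile scaling, 3 with quantile normalization, 2 with the same sum of FPKM and 2 with the same sum without 2 mitochondrial rRNA genes. The last setting, the quantile-normalized ALEXA-Seq values and the ratios without a pseudocount were chosen after the data were seen. The scalings moved the calls over all genes from 2883 higher in BMDM and 587 higher in BSM to 1380 and 1051 (upper quartile), 1378 and 1227 (quantile), 973 and 1582 (same sum), and 1186 and 1227 (without mitochondrial rRNA), and those of the pathway genes from 20 and 7 to 9 and 17 with the same sum. Leaving out each library in turn kept all 5 members called, and gave 2463 to 3876 calls over all genes, and the 7 pathway genes called towards BSM became 4 without BMDM replicate 3 and 3 without BSM replicate 3. The log2 fold change of Syk was reversed to -0.14 with the same sum of FPKM. With upper quartile scaling, quantile normalization, the same sum and the same sum without mitochondrial rRNA, that of Btk was -0.35, -0.31, -0.74 and -0.51, and that of Lyn was -0.58, -0.51, -1.04 and -0.77. For Apoe it lay between -0.44 and 0.0234 with a library left out, the latter without BMDM replicate 1. Ranking neighbours by Pearson correlation kept 2 of 15 genes.

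With the replicate block, 3471 genes were called against 3470 without it, of which 3315 were called in both. Same-numbered libraries deviated from their group means with correlations of -0.0195, -0.00836 and 0.134, and not every library correlated best with its own number, so the numbers were not taken as pairs. All 5 members were called with the block, and the call of Inpp5d was lost (limma adjusted p = 0.0507). Its call was also lost with a pseudocount of 0.1, with no FPKM minimum and without each of the BMDM replicates. The fit with library quality weights stopped before convergence. Where an alternative changed a result, the cause was not tested.

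Without read counts, values near 0, such as those of Hcst and Trem1, have no counting error attached, and an FPKM listed at 0 is not a measured absence.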
